A study of Mus musculus with 37 samples.

Results

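The overexpression experiment compared mouse primary neurons grown in vitro that carry the treatment label synGFP (GFP, n = 3 libraries) with neurons of the same source labelled Tet2 overexpression (Tet2 OE, n = 3), which are 6 of the 37 libraries of the series. It was chosen by its label, and all genes of its table entered, with 24411 genes listed and 22399 tested. The series also holds 2 Tet2 knockdowns in cultured neurons and a Tet2 knockout in hippocampal nuclei. Of these only the second knockdown, shLuc against Tet2 KD (6 libraries each, in vitro primary neurons), is set beside the overexpression values here. The labels of the 6 libraries give no age or strain of the animals, promoter, vector, dose or time of expression, and they do not say whether the libraries of a group came from separate cultures. P-values therefore measure the spread between these libraries, which may be technical. RNA was extracted with RNeasy columns, and polyA-selected, strand-specific libraries were read in pairs, per the labels' protocols. A library is named by the number in its column, so the GFP libraries are 4, 5 and 6 and the Tet2 OE libraries 3, 4 and 6. Values are deposited normalized counts unless another unit is named, and values per library are given in that order.

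Tet2 belongs to the TET family of dioxygenases, which oxidise 5-methylcytosine in DNA to 5-hydroxymethylcytosine and on to forms that base excision repair can replace with plain cytosine. The family acts mainly on cytosines followed by guanine, the CG dinucleotide at which most DNA methylation of mammals lies, and neurons are known for a high content of 5-hydroxymethylcytosine. Tet2, unlike Tet1 and Tet3, lacks a CXXC DNA-binding domain of its own, and O-GlcNAc transferase, the product of Ogt, is a known partner of the family.

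Promoter sequence is shown for genes with some of the widest gaps between the groups, since CG is the dinucleotide on which the overexpressed enzyme acts. Tmem170b and Irs1 were higher in Tet2 OE. The ribosomal protein genes Rps7 and Rpl37 were lower. The sequences are from RefSeq on GRCm38.p6, run 5′ to 3′ on the gene's strand from 250 bases before to 50 bases after the start of the transcript, and have each CG in capitals. They lie at chr13:41605632-41605931 (plus strand, 49 CG), chr1:82291390-82291689 (minus strand, 28 CG), chr12:28635904-28636203 (minus strand, 21 CG) and chr15:5116363-5116662 (plus strand, 23 CG).
Tmem170b: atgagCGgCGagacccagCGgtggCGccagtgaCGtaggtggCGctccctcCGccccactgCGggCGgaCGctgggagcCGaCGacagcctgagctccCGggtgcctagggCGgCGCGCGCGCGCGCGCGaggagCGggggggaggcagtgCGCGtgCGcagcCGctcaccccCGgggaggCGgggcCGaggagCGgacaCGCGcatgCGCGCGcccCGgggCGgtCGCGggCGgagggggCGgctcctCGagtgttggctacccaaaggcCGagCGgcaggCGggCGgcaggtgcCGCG
Irs1: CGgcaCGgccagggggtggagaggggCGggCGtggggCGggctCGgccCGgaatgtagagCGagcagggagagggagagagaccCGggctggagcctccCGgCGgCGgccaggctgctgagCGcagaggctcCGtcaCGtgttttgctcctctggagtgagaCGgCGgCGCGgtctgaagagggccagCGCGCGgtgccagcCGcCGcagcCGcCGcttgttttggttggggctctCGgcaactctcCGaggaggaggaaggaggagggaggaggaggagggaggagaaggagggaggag
Rps7: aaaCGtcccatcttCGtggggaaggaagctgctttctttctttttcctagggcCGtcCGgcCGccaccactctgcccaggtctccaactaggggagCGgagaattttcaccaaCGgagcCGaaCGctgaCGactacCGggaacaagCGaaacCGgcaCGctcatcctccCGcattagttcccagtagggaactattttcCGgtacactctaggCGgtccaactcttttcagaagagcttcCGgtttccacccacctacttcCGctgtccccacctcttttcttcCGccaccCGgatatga
Rpl37: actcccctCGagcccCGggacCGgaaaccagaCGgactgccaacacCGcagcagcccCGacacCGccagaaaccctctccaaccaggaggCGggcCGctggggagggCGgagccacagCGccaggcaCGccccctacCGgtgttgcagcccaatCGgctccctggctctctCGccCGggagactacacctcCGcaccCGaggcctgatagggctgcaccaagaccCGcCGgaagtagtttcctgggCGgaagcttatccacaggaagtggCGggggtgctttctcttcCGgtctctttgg

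CG reads the same on both strands, so a single search covers both. Of 27025 promoters of this length, taken at the first listed start of each symbol, 94.2% held at least 1 CG, with a median of 7. Among genes with a mean normalized count of 100 or more over the 6 libraries and a matched promoter (7830 genes), the median CG number was 23 for genes higher in Tet2 OE (1083 genes), 22 for genes lower (456 genes) and 22 for all of them. Across these 7830 genes the Spearman correlation of the CG number with the log2 fold change was 0.0013. This is a description across genes of the same 6 libraries.

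The libraries of the groups differed in depth and in how many genes they detected. GFP libraries held 16988077 to 48321564 reads and Tet2 OE libraries 66684922 to 73220675, while 18540 to 21194 genes had a read in GFP and 16457 to 18371 in Tet2 OE. With every library thinned to about the depth of GFP 4, these were 17963 to 20870 genes in GFP and 15476 to 17336 in Tet2 OE. The 10 genes with the most reads took 19.5% to 24.3% of a library. Superoxide dismutase Sod1 was the first of them in each GFP library (4.88% to 9.79% of reads) and the proteoglycan gene Ncan in each Tet2 OE library (4.72% to 4.95%). Across 9190 genes, the Spearman correlation of a library's levels with the mean of the shLuc cultures was 0.313 to 0.458 in GFP and 0.174 to 0.184 in Tet2 OE, so both groups stood apart from those cultures in the order of their genes. Within the experiment, Spearman correlations were taken over another set, all genes with a mean of 0.5 or more. They were 0.799 to 0.868 between libraries of a group and 0.765 to 0.815 between libraries of different groups. In the second knockdown the same measure was 0.973 to 0.989 within a group and 0.958 to 0.982 between groups, so replicates agreed less here. The neuronal genes Rbfox3, Map2, Tubb3 and Snap25 were present in all 6 libraries, and none passed the test. In bulk samples, fewer cells of a type and less RNA per cell cannot be told apart.

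Tet2 (chr3:133463679-133545139, minus strand, mm10) was at 876, 1905 and 2391 in GFP and at 5592, 2815 and 3061 in Tet2 OE. Every Tet2 OE library was above every GFP library, and Tet2 OE 3 was well above the other two. The means were 1724 ± 773 (SD, n = 3) and 3823 ± 1538 (SD, n = 3). The log2 fold change was 1.20 (SE 0.48), with an adjusted p of 0.116 in limma, so the gene meant to be raised did not pass the test. The exact two-sided permutation test gave p = 0.1, the smallest that 3 libraries against 3 allow. Scaled by library totals in place of the authors' size factors, Tet2 was at 39.0, 46.5 and 45.4 CPM (reads scaled to an equal total per library) in GFP and at 81.5, 53.7 and 52.0 in Tet2 OE, a log2 difference of 0.49. Once the values of each library were corrected for the GC content and length of transcripts, the log2 fold change of Tet2 was 0.06 (adjusted p = 0.945). A predicted gene, Gm42567, overlaps Tet2 exons on the other strand. The strand setting of the authors' counting is not given in the sources used here, so its reads and those of Tet2 may not be separable.

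Tet3 passed the test. It was at 777, 1959 and 1858 in GFP and at 4671, 4344 and 3841 in Tet2 OE, with no overlap of the groups. Its log2 fold change was 1.59 (SE 0.45, adjusted p = 0.0343), and 1.10 (adjusted p = 0.117) after the GC and length correction. The call was kept in 3 of the 9 fits that left out a library or used another scaling, and was lost without GFP 4 or 5, without any of the Tet2 OE libraries and with library totals (adjusted p of 0.0515 to 0.110). Tet1 was at 3005, 6843 and 8017 in GFP and at 6418, 7088 and 5297 in Tet2 OE, and the groups overlapped. Its log2 fold change of 0.18 (adjusted p = 0.814) did not pass the test, and turned to -0.53 when scaled by library totals. The authors' deposited table lists 1.15 for Tet2 (adjusted p = 0.0951), 1.48 for Tet3 (adjusted p = 0.0137) and 0.07 for Tet1 (adjusted p = 0.940). In the second knockdown, where Tet2 was at 459 ± 74.7 in shLuc and 175 ± 87.6 in Tet2 KD (SD, n = 6 each), Tet3 was at 290 ± 30.1 and 433 ± 47.5.

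**Figure D1:**
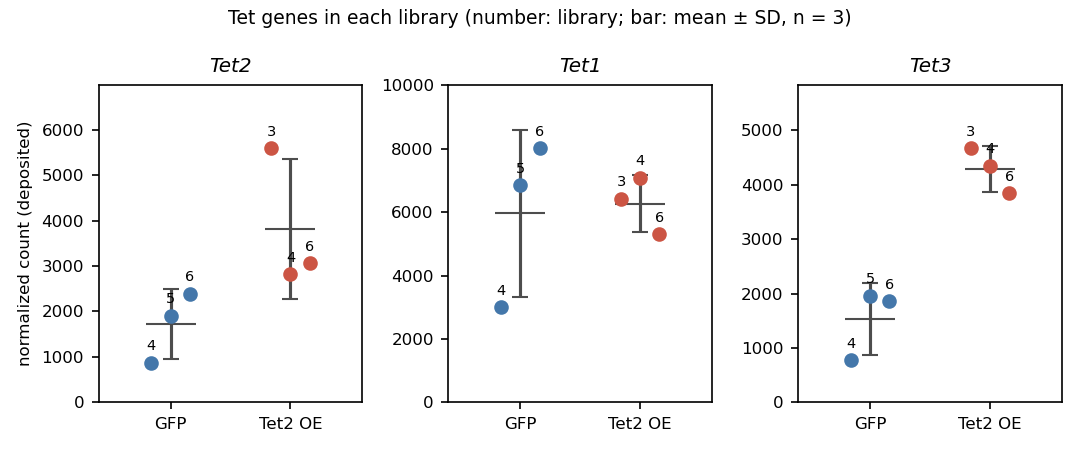
Deposited normalized counts of Tet2, Tet1 and Tet3 in each library, numbered as in the columns, with the mean ± SD of each group (n = 3). Tet2 and Tet3 are higher in every Tet2 OE library than in any GFP library, Tet2 most in library 3 (5592), and Tet1 overlaps between the groups.

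Across the transcriptome, 2230 of the 22399 genes tested (9.96%) passed the limma test at an adjusted p of 0.05. Of these, 1386 were higher in Tet2 OE (6.19%) and 844 lower (3.77%), and 6226 genes had an unadjusted p under 0.05. The groups did not overlap in 1378 of the genes called higher and 843 of those called lower. A lack of overlap therefore adds little to a call. Changes were large: the median log2 fold change was 2.38 among genes called higher and -3.23 among genes called lower, and 119 of the latter were at 0 in every Tet2 OE library. The median over all genes tested was -0.75, which low genes set, and 0.18 over the 10043 genes with a mean of 100 or more, of which 13.7% were called higher and 5.7% lower.

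How many genes passed rested on the libraries and the scaling. Leaving out GFP 5 left 642 calls and leaving out GFP 6 gave 3004, and 508 higher and 81 lower calls were kept whichever library was left out. Scaling by library totals moved the median of all genes by -0.56 and gave 861 higher and 1799 lower calls, and TMM factors moved it by 0.16 and gave 1578 and 644. The share of calls that were higher was thus 62.2% as fitted, 32.4% with library totals and 71.0% with TMM factors. The authors' deposited table calls 4057 genes (1853 higher, 2204 lower), among them 1377 of the 1386 and 837 of the 844.

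**Figure D2:**
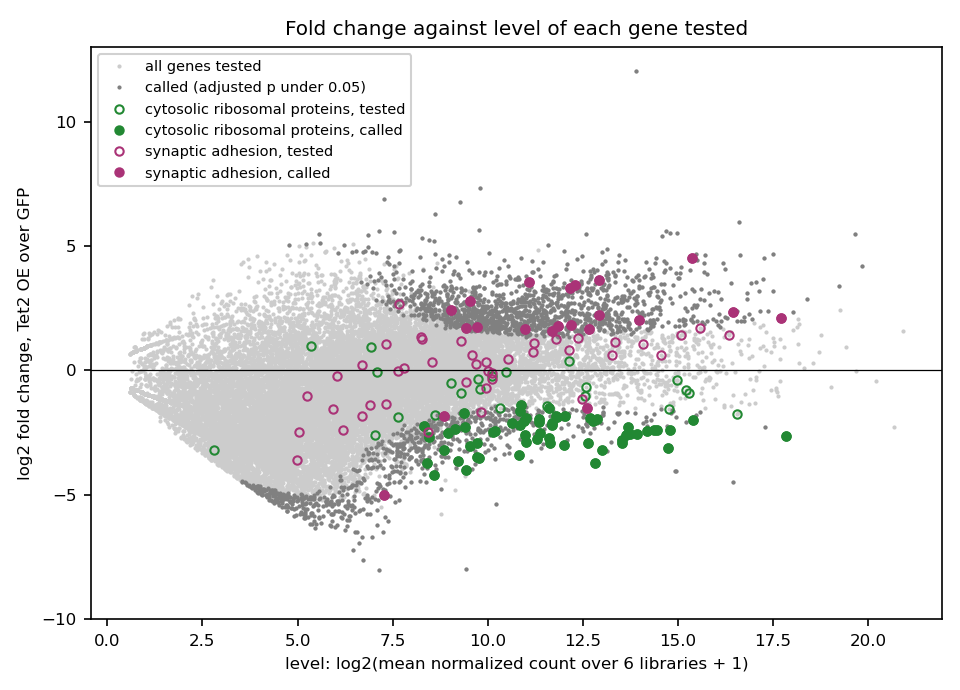
Log2 fold change of Tet2 OE over GFP (vertical axis) against level, as log2 of the mean normalized count over the 6 libraries plus 1 (horizontal axis), for the 22399 genes tested. Cytosolic ribosomal protein genes lie almost all below 0 (58 of 81 called lower) and synaptic adhesion genes mostly above it (18 of 63 called higher, 3 lower); filled symbols passed the limma test.

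Fold changes followed the make-up of the transcripts. Genes called higher had a median transcript GC content of 45.9% and genes called lower 54.5%, against 49.0% for all genes tested. The median transcript length was 4686 bases for genes called higher, 2324 for genes called lower and 2707 for all, and the median 3′ UTR length was 2288, 686 and 965 bases. Among genes with a mean of 100 or more, the tenth lowest in GC content had a median log2 fold change of 0.94, with 23.8% called higher and 1.10% called lower. The tenth highest in GC content had a median of -1.15, with 2.60% called higher and 17.4% called lower. From the tenth with the shortest to the tenth with the longest 3′ UTR, the median went from -0.61 to 0.83, and the share called higher from 6.83% to 28.9%. With each library corrected for transcript GC content and length, 857 genes were called higher (3.88%) and 590 lower (2.67%), among them 772 of the 1386 and 400 of the 844. Among genes with a mean of 100 or more, the tenth with the shortest transcripts had a median of -0.99 before and -0.48 after correction. The correction thus did not remove the trend with length for the shortest transcripts. Counts after this correction are given with the gene groups as "corrected" counts. What GC content and length contributed to a change of any gene was not tested beyond this.

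**Figure D3:**
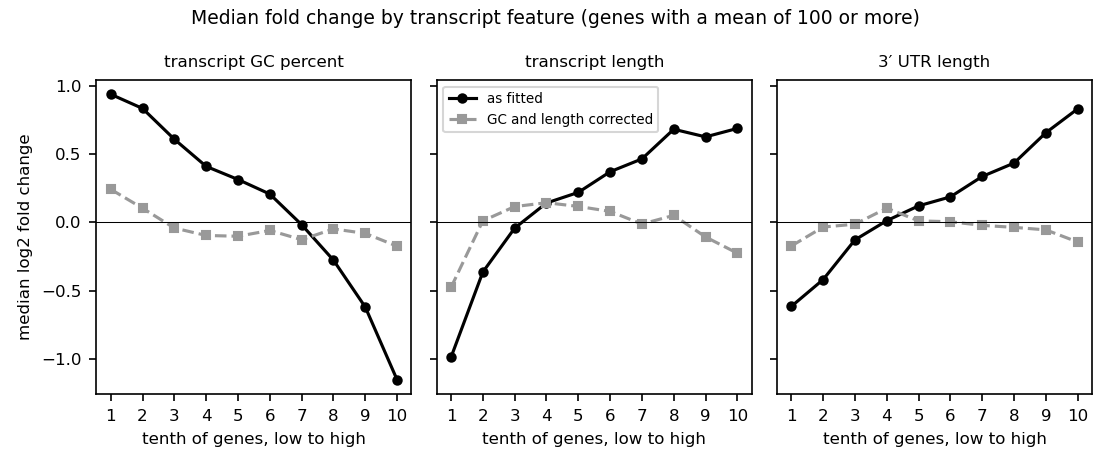
Median log2 fold change of Tet2 OE over GFP (vertical axis) in 10 equal bins of genes ordered by transcript GC percent, transcript length or 3′ UTR length (horizontal axes), for genes with a mean of 100 or more. As fitted (black), the median goes from 0.94 to -1.15 with rising GC content and from -0.61 to 0.83 with rising 3′ UTR length; the grey points show the values corrected for GC content and length.

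The genes that rose most and kept their call under each library left out and each of 3 other scalings included a receptor and signalling proteins at high level. Tmem170b (chr13:41605907-41641355), which encodes a transmembrane protein, was at 2466, 3100 and 3515 in GFP and at 131853, 205754 and 249480 in Tet2 OE (log2 fold change 5.98, SE 0.46, adjusted p = 1.54e-06). Irs1 (chr1:82233101-82291416), the docking protein that carries the insulin receptor's signal, was at 1168, 1088 and 909 in GFP and at 49004, 45471 and 60349 in Tet2 OE (5.61, SE 0.41, adjusted p = 1.54e-06). These are the genes whose CG-rich promoters are printed above. The tyrosine phosphatase gene Ptp4a1 was at 884, 1132 and 1595 in GFP and at 42536, 59697 and 62505 in Tet2 OE (5.53, SE 0.43). Cnr1, which encodes the cannabinoid receptor of neurons, was at 830, 1078 and 2692 in GFP and at 73038, 49477 and 64408 in Tet2 OE (5.52, SE 0.48). Genes were named only where the groups did not overlap, so the gap between them in these genes is a description. Glcci1 also rose (5.38, SE 0.43), from 718, 1486 and 1428 to 46654, 46283 and 51483. Irs1 and Glcci1 have exons of predicted or RIKEN genes on the other strand (Gm9747, and A430035B10Rik and Gm16042).

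Other genes of this set were at or near 0 in GFP. Adnp, a homeodomain and zinc finger protein of a chromatin-repressing complex, was at 17.2, 38.5 and 0 in GFP and at 790, 407 and 1069 in Tet2 OE (6.29, SE 1.18, adjusted p = 0.00232). The zinc finger gene Zfp53 was at 9.27, 30.8 and 81.8 in GFP and at 2099, 2290 and 700 in Tet2 OE (5.64). The olfactory receptor gene Olfr559 was at 53, 5.13 and 2.18 in GFP and at 787, 1984 and 852 in Tet2 OE (6.76). The RNA helicase gene Ddx39 rose as well (5.25), from 56.9, 4.28 and 16.4 to 558, 685 and 758, and shares exon sequence on the other strand with Adgre5. Amd1, a decarboxylase of polyamine synthesis, was at 0, 285 and 0 in GFP and at 38965, 15142 and 36901 in Tet2 OE. Its near-identical copy Amd2 was at 16974, 42221 and 68918 in GFP and at 76677, 73794 and 71567 in Tet2 OE, so how reads were split between the copies decides the Amd1 values, which are uncertain. Summed over both copies, the level was 16974, 42506 and 68918 in GFP and 115642, 88936 and 108468 in Tet2 OE, a difference of 1.5 between the means of the log2 values.

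**Figure D4:**
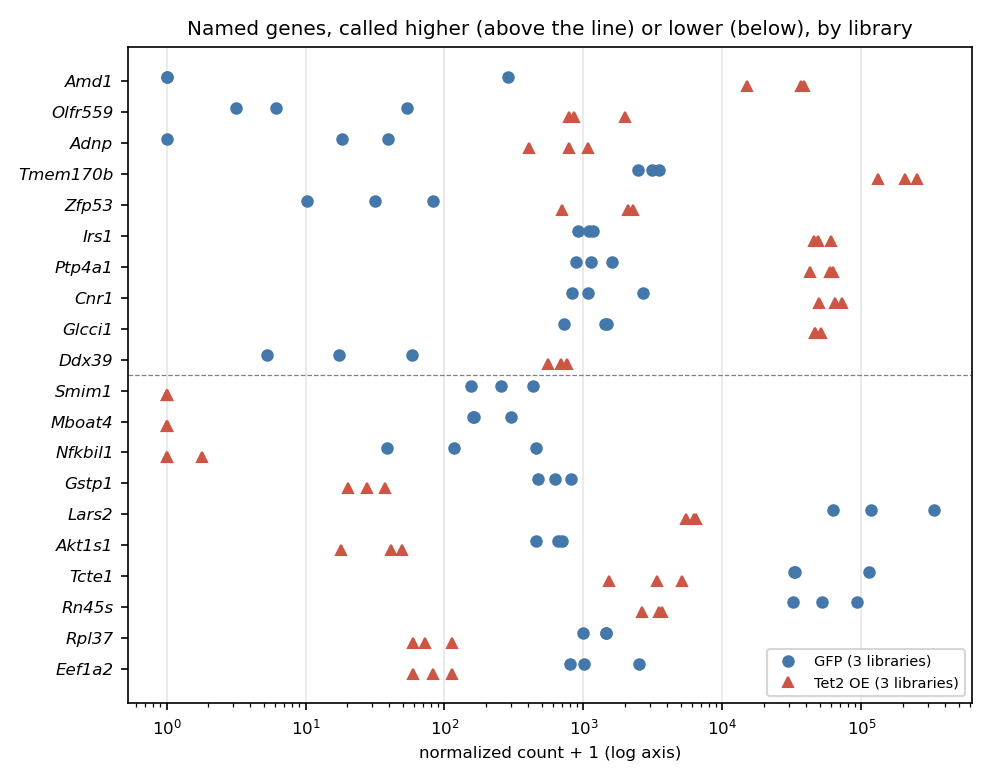
Normalized count plus 1 (log axis) in each of the 3 GFP (circles) and 3 Tet2 OE (triangles) libraries for the 10 named genes called higher (above the dashed line) and the 10 called lower (below it). Genes were chosen for having no overlap of the groups; Smim1 and Mboat4 are at 0 in all Tet2 OE libraries, and Amd1 is at 0 in 2 GFP libraries.

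Adhesion genes of synapses, whose products link the membranes of partner neurons, had the highest share of rises among the gene lists. Of 63 tested, 18 rose (28.6%, against 6.19% of all genes and 13.7% of genes at 100 or more). Falls were called for 3 (4.76%, against 3.77% and 5.7%), Igsf21, Nrxn2 and Ptprs. The median log2 fold change was 0.82 beside -0.75 for all genes and 0.18 for genes at 100 or more. When corrected it was 0.24. The list's transcripts are long, with a median of 6052 bases against 2707 for all genes. Of the tenth of genes at 100 or more with transcripts of 5695 to 7369 bases, 22.4% were called higher. The list took 0.762%, 0.844% and 0.907% of reads in GFP and 1.63%, 1.76% and 1.82% in Tet2 OE. Its groups did not overlap in 28 members that were higher (12.5% of all genes tested) and 9 that were lower (19%). The IgLON gene Negr1 was at 1056, 1171 and 1025 in GFP and at 7576, 17177 and 18844 in Tet2 OE (3.64, SE 0.45, adjusted p = 5.71e-05). Its relative Opcml was at 412, 672 and 1220, and at 2958, 10403 and 14213 (3.44). In both IgLON genes Tet2 OE 3 was the lowest of its group and still above every GFP library. The same order held for the synapse organiser Slitrk2, at 271, 245 and 368 in GFP and at 1431, 4273 and 6297 in Tet2 OE (3.54). Other members that rose were the latrophilin genes Adgrl2 (3.29) and Adgrl1 (2.33), Cntn3 (2.81), Epha4 (2.24), Ncam1 (2.09), the neuroligin gene Nlgn1 (1.80) and Lrrtm1, Lrrtm2 and Lrrtm3 (1.67 to 1.75). Of these, Epha4, Ncam1, Nlgn1, Lrrtm2 and Lrrtm3 lost the call when corrected. Corrected counts were 10 higher and 2 lower, and the rises called were 6 without GFP 5, 9 without Tet2 OE 3 or 6, 11 without Tet2 OE 4 and 14 to 21 without GFP 4 or 6.

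Genes of neurite growth and guidance changed in both directions. Of 68 tested, 13 rose (19.1%, against 6.19% of all genes and 13.7% of genes at 100 or more) and 6 fell (8.82%, against 3.77% and 5.7%), and the median was -0.30. Map1b, a microtubule-associated protein of growing axons, was at 59101, 97040 and 141130 in GFP and at 2404600, 1284340 and 1636640 in Tet2 OE (4.20, SE 0.75, adjusted p = 0.00158), above every GFP library in each. The semaphorin receptor gene Plxna2 was at 2984, 3635 and 4818 in GFP and at 32049, 21443 and 26273 in Tet2 OE (2.81). Epha7 (2.59) and the semaphorins Sema3a (2.63) and Sema5a (2.58) rose too, as did Dcx (1.97) and Mapt (1.97), whose products bind microtubules. The ephrin gene Efnb3 (-3.76), the collapsin response mediators Dpysl4 (-2.61) and Dpysl5 (-1.54) and the actin-severing factor Cfl1 (-1.59) fell. Corrected counts were 5 higher and 4 lower, and Epha7, Sema3a, Sema5a, Dcx, Mapt, Efnb3 and Dpysl5 lost the call. Without GFP 5 they were 4 and 0 as fitted.

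Voltage-gated channels set the excitability of neurons. Of 55 tested, 11 rose (20%) and 3 fell (5.45%). These shares were 6.19% and 3.77% for all genes, and 13.7% and 5.7% for genes at 100 or more. The median of the list was 0.29 and turned to -0.42 when scaled by library totals. Cacna2d1, the auxiliary calcium channel subunit to which gabapentin binds, was at 1227, 1332 and 1508 in GFP and at 18136, 17656 and 22477 in Tet2 OE (3.84, SE 0.40, adjusted p = 2.07e-05). The sodium channel gene Scn1a was at 490, 881 and 1207 in GFP and at 5889, 5497 and 8259 in Tet2 OE (log2 fold change 3.0). Among potassium channel genes, Kcna1 was at 1512, 3422 and 2710 and at 17756, 15823 and 22984 (2.95), and Kcnc2 at 430, 1063 and 836 and at 5099, 5646 and 7066 (3.02). All 4 stood clear of overlap, like nearly all called genes, and kept their call after the GC and length correction. The corrected counts of the list were 6 higher and 0 lower. Kcnh2 (-5.16) and Hcn2 (-4.83) were among the 3 members that fell, none of which kept its call when corrected. With a library left out, 6 (without GFP 5 or Tet2 OE 6) to 10 rises were called.

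Among receptors for fast transmission, AMPA receptor subunits and subunits of the GABA-A receptor were among the genes that rose. Of 40 glutamate receptor genes tested, 5 rose (12.5%) and 1 fell (2.5%), with a median of -0.36, beside 6.19% and 3.77% of all genes and 13.7% and 5.7% of genes at 100 or more. Corrected counts were 2 and 1. Gria1 was at 2147, 2776 and 3808 in GFP and at 20756, 26028 and 27430 in Tet2 OE (3.12, SE 0.42, adjusted p = 0.00014). Gria2 was at 1608, 3167 and 3124 and at 13432, 9998 and 12541 (2.24), and Gria3 at 704, 1027 and 1897 and at 10152, 4982 and 5740 (2.57). Like nearly all called genes, these AMPA subunit genes did not overlap between the groups. Gria1 and Gria3 kept the call when corrected (2.38 and 1.63), and Gria2 did not (1.28, adjusted p = 0.0649). Among 40 GABA receptor and GABAergic neuron genes, 8 rose (20%) and 2 fell (5%), with a median of 0.26 that turned to -0.45 with library totals and to -0.08 when corrected. The GABA-A receptor gene Gabra2 was at 365, 345 and 536 in GFP and at 3359, 2776 and 2388 in Tet2 OE (2.79). Gad2, which makes GABA, was at 3271, 4446 and 4374 and at 18973, 16103 and 22406 (2.25), and Gad1 rose as well (1.88). The peptide of a class of interneurons, Sst, fell (859, 764 and 244 to 11.3, 62.3 and 77.2), as did the vesicular GABA transporter gene Slc32a1 (-2.72, lost when corrected). The corrected counts were 6 and 1, and without GFP 5 there were 4 rises and 0 falls, against 3 and 0 of glutamate receptor genes.

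Of 57 genes of the synaptic vesicle cycle, 9 rose (15.8%) and 7 fell (12.3%), with a median of -0.22. Of all genes, 6.19% rose and 3.77% fell, and of genes at 100 or more 13.7% and 5.7%, so the share of rises is near the latter. Dnm3, a dynamin that pinches off vesicles, was at 974, 1749 and 1476 in GFP and at 19864, 10946 and 14726 in Tet2 OE (3.44), and the active zone scaffold Pclo was at 1341, 1243 and 1259 and at 3610, 8208 and 9440 (2.35). Both have exons of other genes on the opposite strand. Cplx1, a complexin that binds the fusion complex, went the other way, from 2895, 1883 and 1019 in GFP to 341, 270 and 326 in Tet2 OE (-2.51, SE 0.51, adjusted p = 0.0039). The priming factor gene Unc13a (-2.41) fell too. Of 41 postsynaptic scaffold and kinase genes, 8 rose (19.5%), among them Homer2 (1.85), Kalrn (1.85) and Dlg2 (2.47), and 3 fell (7.32%), among them Shank3 (-3.02). A single rise, 1 of the 41, was called without GFP 5 or without Tet2 OE 6, and 2 were without Tet2 OE 4. In the vesicle cycle, 2 rises and 1 fall were called without GFP 5. Corrected counts were 4 and 2 for the vesicle cycle and 2 and 1 for the scaffolds, and Pclo, Homer2, Kalrn, Dlg2 and Shank3 lost the call.

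Among 39 genes of the TET and DNA methylation machinery, 5 rose (12.8%, against 6.19% of all genes and 13.7% of genes at 100 or more) and 1 fell (2.56%, against 3.77% and 5.7%), with a median of 0.02. Corrected counts were 1 and 1. Ogt, the TET partner, was at 1095, 1912 and 2602 in GFP and at 4746, 13852 and 16559 in Tet2 OE (2.55, SE 0.51, adjusted p = 0.0037). Zbtb4, a methyl-CpG reader, was at 2231, 4984 and 8904 and at 17239, 14126 and 16525 (1.78). The groups did not overlap in these genes, as in nearly all called genes, and Tet3 and Parp1 (1.69) also rose. Mbd5 fell from 420, 443 and 243 to 6.18, 137 and 66.7 (-3.14, adjusted p = 0.0493). None of the 5 rises was called without GFP 5, and after correction Ogt was at 1.58 (adjusted p = 0.0604) and Zbtb4 at 1.24 (adjusted p = 0.0852). Of 33 germline genes known to be silenced by promoter methylation, 0 passed the limma test in either direction. The smallest p was that of Tex15, at 220, 78.7 and 25.1 in GFP and at 201, 250 and 353 in Tet2 OE (1.76, unadjusted p = 0.0477, adjusted p = 0.175), with overlap of the groups, and 1 of the 33 had an unadjusted p under 0.05. DESeq2 called 1 of the 33 and edgeR 0.

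Imprinted genes, whose expression depends on parental methylation marks, rose in 8 of 49 cases (16.3%) and fell in 2 (4.08%), with a median of -0.32. These shares were 6.19% and 3.77% for all genes, and 13.7% and 5.7% for genes at 100 or more. Inpp5f, an inositol phosphatase, was at 46034, 123121 and 195836 in GFP and at 1363890, 931329 and 1024780 in Tet2 OE (3.40, SE 0.76, adjusted p = 0.00842). The list took 0.479% to 0.582% of reads in GFP and 1.98% to 2.25% in Tet2 OE. Without Inpp5f it took 0.211% to 0.274% and 0.243% to 0.28%, and the groups overlapped. Usp29 was at 1026, 1416 and 1770 and at 10557, 5162 and 6503 (2.37), and its neighbour Peg3 at 602, 755 and 619 and at 2201, 1908 and 2280 (1.70). Growth factor adaptor Grb10 was at 503, 948 and 867 and at 2726, 2509 and 2663 (1.82). Usp29, Peg3 and Grb10 lost the call when corrected. The corrected count was 1 higher and 5 lower, and without GFP 5 it was 1 and 0 as fitted. Of 60 chromatin writers and erasers, 8 rose (13.3%) and 1, the histone deacetylase gene Hdac5, fell (-2.88, lost when corrected). The histone methyltransferase gene Ehmt1 was at 860, 910 and 931 and at 7541, 6592 and 6374 (2.92), Setd2 at 720, 657 and 676 and at 5302, 4004 and 4265 (2.71), and the demethylase gene Kdm5a at 1827, 2575 and 3269 and at 21294, 13542 and 17040 (2.77). In these 3 the groups did not overlap, as in nearly all called genes, and the call was kept after correction. The corrected count of the list was 5 higher and 4 lower, and the rises called were 3 without GFP 5, 4 or 5 without GFP 4 or a Tet2 OE library and 12 without GFP 6.

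Cytosolic ribosomal protein genes, the protein parts of the ribosome that translates most messenger RNA, had the highest share of falls among the gene lists. Of 81 tested, 58 fell (71.6%, against 3.77% of all genes and 5.7% of genes at 100 or more) and 0 rose. The median log2 fold change was -2.24, and 78 had a negative value. The list took 4.16%, 4.21% and 2.78% of reads in GFP and 0.458%, 0.675% and 0.52% in Tet2 OE. This share rests on library totals in place of the size factors, and depends on the other genes of a library. In 67 of the 81 the groups did not overlap, with the lower values in Tet2 OE (19% of all genes). Rps7 (chr12:28630854-28635953), part of the small subunit, was at 9367, 15624 and 15096 in GFP and at 869, 1352 and 841 in Tet2 OE (-3.71, SE 0.43, adjusted p = 3.77e-05). Rpl37 (chr15:5116645-5119140), part of the large subunit, was at 1450, 1441 and 991 and at 58.7, 113 and 71.6 (-4.01, SE 0.57). Their promoters are printed above. The acidic stalk protein gene Rplp1 was at 47421, 61559 and 39209 and at 4935, 7250 and 4732 (-3.13), Rps12 at 15056, 20240 and 8936 and at 1243, 2162 and 1315 (-3.20), and Rpl13a at 6718, 9315 and 5955 and at 838, 1060 and 809 (-3.0). Many ribosomal protein genes have processed copies in the genome among which reads can be split, so the size of single folds is uncertain. The corrected count was 43 lower and 0 higher, library totals gave 69 lower and TMM factors 50, and without GFP 5 it was 28, with 43 to 56 when another library was left out.

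Genes of the respiratory chain encoded in the nucleus, which supply the subunits of the complexes in the mitochondrial inner membrane, fell in 25 of 75 cases (33.3%, against 3.77% of all genes and 5.7% of genes at 100 or more) and rose in 0, with a median of -1.70. The list took 0.732%, 0.515% and 0.391% of reads in GFP and 0.163%, 0.22% and 0.187% in Tet2 OE. Cox7c, of cytochrome c oxidase, was at 1409, 2354 and 2405 in GFP and at 203, 258 and 228 in Tet2 OE (-3.12, SE 0.48, adjusted p = 0.000435), and Cox6b1 was at 4453, 5576 and 4840 and at 777, 1166 and 1324 (-2.21). Uqcrc1, of complex III, was at 3781, 2200 and 1714 and at 462, 517 and 335 (-2.49). Members of complex I that fell included Ndufa13 (-3.87), Ndufa1 (-3.41) and Ndufs8 (-2.91), and of ATP synthase Atp5b (-1.64) and Atp5c1 (-1.81). The corrected count was 13 lower and 1 higher, with the calls of Uqcrc1, Ndufa13, Ndufa1, Ndufs8 and Atp5b lost, and 3 falls were called without GFP 5, 14 to 16 without GFP 4 or a Tet2 OE library and 25 without GFP 6. The transcripts of this list and of the ribosomal list are short, with median lengths of 918 and 906 bases against 2707 for all genes.

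The other genes that fell most were of mixed function. Smim1, a small membrane protein, was at 154, 252 and 435 in GFP and at 0 in all Tet2 OE libraries, at least 110-fold lower against a floor of 3 reads per library. Mboat4, the enzyme that acylates ghrelin, was at 162, 158 and 301 and at 0, at least 81.2-fold lower. Nfkbil1 was at 115, 37.6 and 458 in GFP and had 1 read in the 3 Tet2 OE libraries together, a ratio of 701 with a 95% exact counting interval of 125 to 27724. All 3 overlap exons of other genes on the opposite strand, as does Akt1s1, given below (Tbc1d17). Such overlap is not marked for every gene named here: Hspe1, Srebf1, Kdm5a, Usp29, Jund and Pcsk2 are among others that have it. Gstp1, a glutathione transferase with a near-identical copy in the mouse genome, was at 620, 473 and 819 in GFP and at 26.8, 36.5 and 19.3 in Tet2 OE (-4.49). Eef1a2, the translation elongation factor of neurons and muscle, was at 2510, 1015 and 805 and at 58.7, 112 and 82.0 (-3.95), and Akt1s1, an inhibitor of mTOR complex 1, was at 457, 651 and 701 and at 48.4, 40.1 and 16.9 (-4.17). When corrected, Nfkbil1 (-4.75, adjusted p = 0.0805) and Akt1s1 (-2.59, adjusted p = 0.0512) lost the call. Lars2, the leucyl-tRNA synthetase of mitochondria, was at 331164, 117969 and 62813 in GFP and at 6274, 6413 and 5494 in Tet2 OE (-4.48), with GFP 4 highest. Rn45s, the precursor of ribosomal RNA, which is not a polyA messenger, had the same order in GFP, at 92498, 52243 and 32010, and was at 3663, 3468 and 2659 in Tet2 OE (-4.05). It took 0.0607% to 0.411% of reads in GFP and 0.00452% to 0.00662% in Tet2 OE, and its part in other results was not tested. Tcte1 also fell (-4.06), from 33374, 113035 and 32576 to 1520, 3359 and 5144, and overlaps Tmem151b exons on the other strand.

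Of 40 immediate early and activity-regulated genes, 3 rose (7.5%) and 5 fell (12.5%), with a median of -0.52. For this list and the next, the shares were 6.19% and 3.77% in all genes, and 13.7% and 5.7% in genes at 100 or more. Egr4 was at 412, 139 and 110 in GFP and at 1.03, 6.44 and 1.61 in Tet2 OE (-5.77), Jund at 418, 487 and 255 and at 11.3, 39.4 and 19.3 (-4.11), and Egr1 (-1.61), Junb (-3.18) and Maff (-4.97) fell too. These encode transcription factors. Klf6 rose, from 1538, 2041 and 1652 to 5989, 8646 and 12496 (2.32), with Btg2 (2.05) and the scaffold gene Homer1 (2.04). Corrected counts were 2 higher and 0 lower, the falls were not called without GFP 5 either, and Klf6 kept its call when corrected (1.56, adjusted p = 0.0295). Of 31 genes of neuropeptides and their processing, 2 rose (6.45%) and 3 fell (9.68%). Cck was at 1134, 3296 and 3778 in GFP and at 431, 316 and 101 in Tet2 OE (-3.33), and Vgf at 860, 237 and 194 and at 16.5, 30.1 and 3.22 (-4.70), while the prohormone convertase gene Pcsk2 was at 2409, 3371 and 6721 and at 19105, 17524 and 21925 (2.36). The corrected counts were 1 and 2, with Vgf at -2.99 (adjusted p = 0.0928), and without GFP 5 the list had 0 calls in either direction in limma.

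Stress and immune lists are read against the 6.19% of all genes that rose and the 3.77% that fell, and against 13.7% and 5.7% of genes at 100 or more. The share of rises was below that 13.7% in every list of this paragraph. Of 44 genes of the unfolded protein and integrated stress responses, 5 rose (11.4%), among them Vldlr (968, 1214 and 1139 to 9301, 9393 and 15338) and Cebpg (2.61), and 4 fell (9.09%), among them the chaperone gene Calr (-2.09). Of 30 heat shock chaperones, 2 rose (6.67%) and 4 fell (13.3%), with the mitochondrial co-chaperone gene Hspe1 at 3758, 5368 and 5351 in GFP and at 635, 546 and 462 in Tet2 OE (-3.13). Of 41 genes of the p53 response and apoptosis, 4 rose (9.76%), among them Bcl2l11 (294, 500 and 507 to 2044, 3099 and 1956), which promotes cell death, and 2 fell (4.88%). Of 55 interferon response genes, 4 rose (7.27%) and 1 fell (1.82%). Guanylate-binding protein gene Gbp3 was at 318, 130 and 238 and at 3555, 3070 and 1295 (3.49), and Ifit2 at 107, 36.8 and 3.27 and at 787, 339 and 1061 (4.66). Of 33 genes of cholesterol and fatty acid synthesis, 2 rose (6.06%) and 4 fell (12.1%), with Hsd17b7 from 842, 539 and 463 to 5307, 2840 and 3900 (2.71) and the regulator gene Srebf1 from 696, 334 and 157 to 10.3, 4.29 and 11.3 (-5.21). Higher and lower corrected counts were 2 and 2 for the stress responses, 2 and 2 for heat shock, 3 and 1 for p53, 3 and 0 for interferon and 1 and 4 for cholesterol. Without GFP 5 they were, as fitted, 2 and 0, 2 and 1, 1 and 0, 3 and 0 and 1 and 0 in that order.

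Markers of the cell types that a neuron culture can hold were counted in the same way. For all lists of this paragraph, the shares were 6.19% and 3.77% in all genes, and 13.7% and 5.7% in genes at 100 or more. Of 20 pan-neuronal markers, 2 rose (10%) and 1 fell (5%). The sum of the list was 0.608% to 0.646% of reads in GFP and 0.399% to 0.483% in Tet2 OE, and 0 members were at 0 in any library. Map2, of dendrites, was at 25902, 52052 and 51575 in GFP and at 10104, 20160 and 19642 in Tet2 OE (-1.37, adjusted p = 0.0843). Of 26 markers of excitatory neurons, 3 rose (11.5%) and 1 fell (3.85%), with Mef2c from 2073, 4466 and 2523 to 18766, 16900 and 20852 (2.71). Of 28 astrocyte markers, 4 rose (14.3%) and 2 fell (7.14%), near the shares of genes at 100 or more. Corrected counts were 2 and 1, and without GFP 5 they were 1 and 0 as fitted. The sum of the list was 0.449% to 0.521% of reads in GFP and 0.415% to 0.514% in Tet2 OE. The water channel gene Aqp4 rose (978, 1064 and 1604 to 7924, 14633 and 14008), while Gfap was at 1067, 657 and 492 and at 159, 239 and 301 (-1.64, adjusted p = 0.0698). Slc1a3 and Aldh1l1 overlapped between the groups, so the defining markers did not move together. Of 24 oligodendrocyte lineage markers, 1 rose (4.17%) and 3 fell (12.5%), and the sum was 0.0342% to 0.0734% of reads in GFP and 0.0182% to 0.021% in Tet2 OE. Olig1 was at 7367, 3354 and 1848 and at 356, 235 and 286 (-3.63), while Pdgfra, of the precursors, was at 222, 293 and 181 and at 1012, 759 and 1160 (2.07, lost when corrected). Of 23 microglial markers, 0 rose and 1 fell, and the list took 0.00973% to 0.0107% of reads in GFP and 0.00222% to 0.0034% in Tet2 OE. Most of these were of the lysosomal gene Cd68, at 1406, 3568 and 4638 and at 1340, 1231 and 1072 (-1.24, adjusted p = 0.108). Without it the list took 0.000927% to 0.00449% and 0.00039% to 0.00105%. Cx3cr1 was at 58.2, 64.2 and 15.3 and at 0 in all Tet2 OE libraries, at least 18.0-fold lower, P2ry12 was at 0, 21.4 and 2.18 in GFP and at 0 in Tet2 OE, and C1qa was at 0 in some libraries of both groups. Vascular markers took 0.00536% to 0.0126% of reads in GFP and 0.00346% to 0.00474% in Tet2 OE. The part of glial, microglial and vascular cells in the other results was not tested. Of 43 progenitor and proliferation genes, 3 rose and 3 fell (6.98% each). The cyclin gene Ccnd2 was at 11446, 29963 and 36819 and at 224211, 174231 and 216125 (3.13), Pax6 at 339, 86.4 and 243 and at 1058, 1483 and 1960 (2.91), and Mki67 at 676, 867 and 1810 and at 602, 1200 and 3008, with overlap. Corrected counts were 1 higher and 2 lower for the pan-neuronal list, 3 and 0 for excitatory neurons, 0 and 1 for oligodendrocytes and microglia, 1 and 1 for vascular markers and 3 and 1 for progenitors. Without GFP 5 the pan-neuronal and microglial lists had 0 calls in limma, and the excitatory, oligodendrocyte and progenitor lists had 1 and 0, 0 and 1, and 3 and 0.

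**Figure D5:**
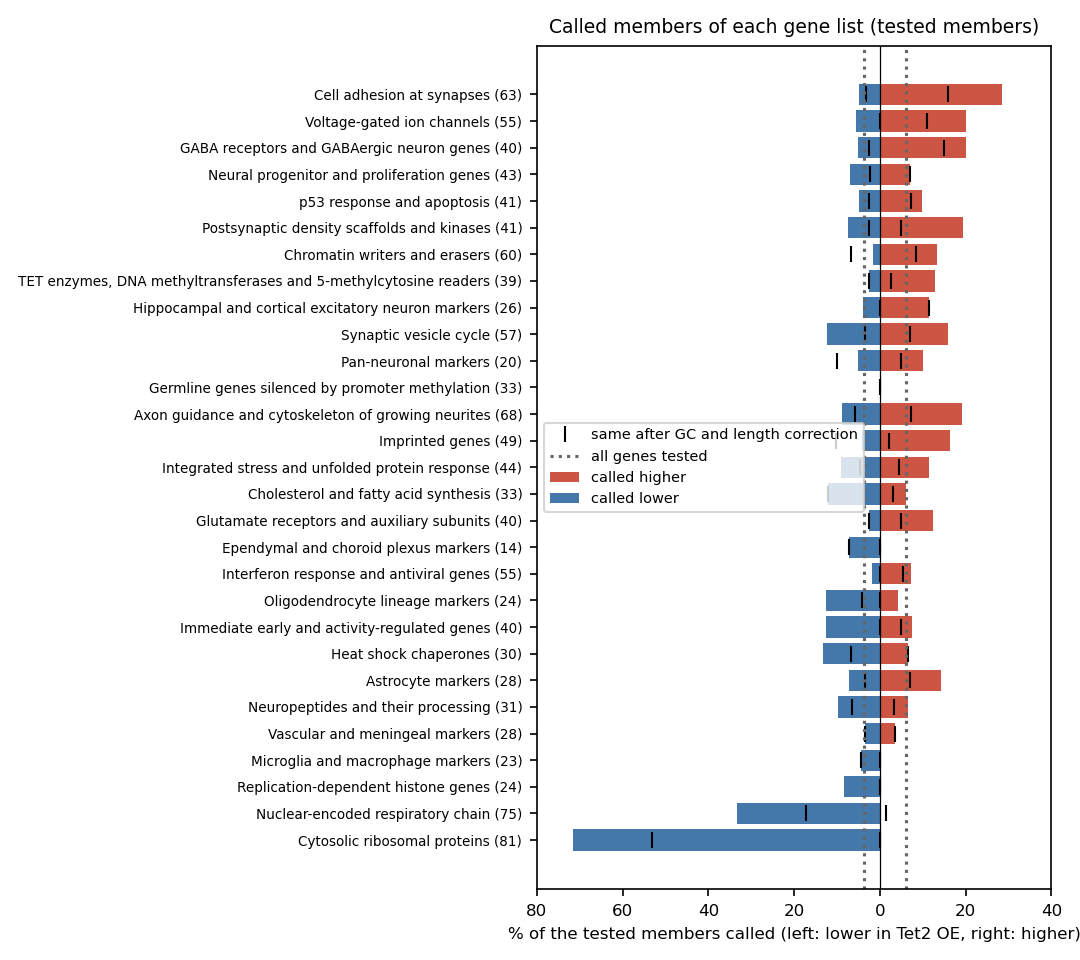
Share of the tested members of each gene list (number tested in brackets) that limma called higher (right) or lower (left) in Tet2 OE, ordered by the list's median fold change; dotted lines are the shares of all genes tested (6.19% and 3.77%) and ticks the counts after GC and length correction. Ribosomal protein genes (58 of 81) and respiratory chain genes (25 of 75) extend furthest to the left, synaptic adhesion genes (18 of 63) furthest to the right.

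The second knockdown gives these genes in cultures where Tet2 fell, with other controls. Its table was normalized separately and its libraries differ from the present ones in the order of their genes, so values stand side by side without a test across the tables. In it, 2043 of 16164 genes were called higher (12.6%) and 2137 lower (13.2%). Of 1351 genes higher in Tet2 OE that were tested there, 327 were lower (24.2%, which is 15.3% of the knockdown's lower genes) and 133 higher (9.84%). Of 730 genes lower in Tet2 OE, 147 were higher (20.1%, 7.2% of the knockdown's higher genes) and 73 lower (10%). Across 16079 genes the Spearman correlation of the fold changes was -0.13. In the knockdown, fold changes had a Spearman correlation of 0.22 with transcript GC content and -0.13 with length, both opposite in sign to the overexpression (-0.38 and 0.28 over genes at 100 or more). The part of GC content and length in the overlap was not tested.

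Gene groups in the knockdown are read against the 13.2% of all its genes that were lower and the 12.6% that were higher. In it, 26 of 63 synaptic adhesion genes were lower and 0 higher, and 26 of 68 neurite growth and guidance genes were lower and 3 higher. Of 57 vesicle cycle genes 19 were lower and 10 higher, and of 44 stress response genes 23 were higher and 2 lower. Of 40 immediate early genes 23 were higher and 2 lower, while their 5 falls in Tet2 OE were lost when corrected. Of 81 ribosomal protein genes 9 were lower and 0 higher, with a median of -0.09. Genes opposite in the experiments with a large change in both, chosen after their values were seen, included Bcl2l11, at 2.46 in Tet2 OE (SE 0.47) and -1.98 in Tet2 KD (SE 0.33). The long noncoding RNA gene Tug1 was at 4.65 and -1.52, and Ptchd1, a gene linked to intellectual disability, at 3.77 and -1.80. In the other direction, Vgf was at -4.70 and 1.93, Junb at -3.18 and 1.42 and the scaffold gene Ahnak at -2.19 and 2.02. Genes also went the same way in both experiments, 133 higher and 73 lower. Among them were Tet3, at 1.59 and 0.58, Klf6, at 2.32 and 0.46, and Cplx1, at -2.51 and -0.75. Each of these values is a log2 fold change that passed limma's test in its own table. Of the 9 fits with a library left out or another scaling, 3 kept the overexpression call of Junb and 3 that of Tet3. The call was kept in 7 for Vgf, 8 for Ahnak and Cplx1 and all 9 for the others.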

How the data were processed

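PolyA-selected RNA of 3 GFP and 3 Tet2 OE libraries of cultured mouse neurons was measured, and the 12 libraries of the second knockdown were used for values set side by side. Build mm10 and the tools STAR, RSEM and DESeq2 are named in the submitters' processing notes. Their versions, the annotation and the strand setting are not given in the sources used here. The deposited signal of a library is a normalized count, a gene count divided by a size factor of the library. 100% of values were whole reads within a tolerance of 0.01 reads, so reads were recovered, and 16988077 to 73220675 reads per library set the precision of low genes. The authors also deposited a log2 fold change, a standard error, a score and a p-value per gene from DESeq2, per the file headers.

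Genes with a mean normalized count of 0.5 or more were fitted as log2(value + 1) with limma 3.58.1 (R 4.3.3), with a trend on level and the 6 libraries alone. The fold change of a gene at low level is understated on this scale. Calls were made at a Benjamini-Hochberg adjusted p of 0.05 over all genes tested, two-sided, and Tet2 was also compared by an exact permutation test. The fit was tested on simulated data. Columns were mapped to groups by name, since their numbers are not those of the sample titles. Gene symbols were matched to GENCODE vM21 for positions, GC content and length (23376 by symbol and 669 by synonym of 24411) and to RefSeq promoters (17764). Counting intervals and floors cover counting error only.

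The genes and the 30 gene lists, of which 29 could be tested, were chosen with earlier results of these data known. The mitochondrially encoded list had 0 members in the table. Named genes were the Tet genes, up to 4 called members per list by p, and the 10 highest and 10 lowest called genes with a mean of 100 or more, no overlap of the groups and no predicted symbol, ordered by how many of 9 fits (6 leaving out a library, 3 other scalings) kept the call and then by fold change. Further list members are named only to describe a count. Some members are not reported here.

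Alternatives were other pseudocounts (0.5 and 5), filters, scalings (library totals, TMM, upper quartile), edgeR 4.0.16 and DESeq2 1.42.0 on recovered reads, thinned reads, each library left out and a replicate block. The correction for transcript GC content and length (natural splines, 5 degrees of freedom each, per library) was chosen after seeing the data.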

Additional observations from a re-analysis of the deposited data

How the results depend on the processing

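The count of 2230 called genes was 2080 to 2660 with the other pseudocounts, filters and scalings, with edgeR on recovered reads (2227) and with thinned reads. It was 4057 with DESeq2 (1853 higher, 2204 lower). With library totals 861 genes were called higher and 1799 lower, and TMM factors gave 1578 and 644. Corrected for transcript GC content and length, 1447 genes were called (857 higher, 590 lower).

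Leaving out a library gave 642 to 3004 calls, 554 to 1517 of them higher and 88 to 1487 lower. The fewest calls came without GFP 5 and the most without GFP 6, and in such fits the group of 2 libraries shares its estimate of spread with the group of 3. Without GFP 4 there were 1482 calls, and without Tet2 OE 3, 4 or 6 there were 1443, 1254 and 1229.

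The column numbers 4 and 6 occur in both groups. Same-numbered libraries had correlations of their deviations of 0.040 and -0.020, and the other pairs -0.055 to 0.062. With so few pairs, this cannot tell whether same-numbered libraries share a culture or batch. With a replicate block on these numbers limma called 0 genes, with 2846 at an unadjusted p under 0.05, against 2230 calls and 6226 such genes in limma without the block. Neither edgeR nor DESeq2 was run with the block, which leaves little in 6 libraries from which to estimate the spread. The block with the GC and length correction gave 354 calls (288 higher, 66 lower).

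The log2 fold change of Tet2 passed no test. It was 0.49 to 1.39 under the scalings, 0.77 to 1.49 with a library left out, 1.02 with the replicate block, 0.057 with the GC and length correction and -0.076 with that correction and the block. That of Tet1 was below 0 with library totals (-0.53), with the correction (-1.0), with the correction and block (-0.81) and without GFP 4 (-0.25, the lowest of -0.25 to 0.46 with a library left out). The cause of these shifts was not tested.

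The 4180 calls of the second knockdown were 3529 to 4678 with a library left out. In the overexpression experiment, 3 libraries a group and the unequal depth limit what can be said of low genes.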
